A study of Mus musculus with 2 samples.

Results

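The 40 cell cycle genes described here are a fixed list, and all 40 were found among the 55401 genes of both libraries. They were split by role into 23 genes of mitosis, 16 genes of DNA replication and Stmn1. Stmn1 encodes stathmin, a microtubule-destabilising protein that cycling cells, neuroblasts and some glia all use. Levels were read in cell classes rebuilt from marker genes, and the 40 genes were left out of the clustering. The naming limits and the choice of neural subclusters were, however, set with cycling counts per cluster in view.

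The data are single-cell RNA counts from brains of C57BL/6J mice aged 10 weeks. The library called metastasis came from a pool of 3 brains injected intracranially with B16/F10-BrM, a brain-seeking derivative of the B16 mouse melanoma line. The library called naive came from a pool of 3 brains that, by their title, carried no tumour. Both suspensions were enriched on beads against ACSA-2, an astrocyte surface antigen, so shares of cells describe these suspensions and not the brain. The series record states that the 2 titles were once the other way round and were later exchanged, and the groups follow the titles as they now stand. There is 1 library per group, so no difference has a replicate check, no test was made, and all intervals are 95% intervals that cover counting error only.

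The libraries held 89193669 and 69445557 unique molecular identifiers (UMIs, 1 per captured RNA molecule) in metastasis and naive. After limits on UMIs, genes and mitochondrial RNA, and removal of likely doublets, 13282 and 13310 barcodes were kept, more than the 10000 cells or so that were loaded. Melanoma-like cells, with all 10 of 10 melanoma markers detected, numbered 711 in metastasis and 18 in naive, which is the order the present titles give. In metastasis every marker of the melanoma, endothelial, mural, microglia, macrophage, neuroblast, astrocyte, oligodendrocyte and ependymal lists was detected in its class. The libraries shared 49 kept barcodes, and none of the 18 melanoma-like or 144 cycling barcodes of naive was among them.

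A dividing cell first copies its DNA and then separates the copies. Helicase subunits (Mcm genes), the sliding clamp Pcna and nucleotide-synthesis enzymes (Tyms, Rrm1, Rrm2, Tk1) are made for the first step. Cyclin B, its kinase Cdk1, kinetochore proteins, spindle kinesins and the anaphase-promoting complex are made for the second. In the adult mouse brain, neural progenitors and neuroblasts of the subventricular zone are the best known dividing cells, whereas brain endothelium and pericytes are largely quiescent.

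The timing of these genes is read in part from short promoter motifs, so 6 promoters are shown: 4 of mitotic genes and 2 of replication genes. In such promoters the cell cycle genes homology region (CHR) and CCAAT boxes are known from genes of late phases, and E2F sites from genes of DNA synthesis. Sequences are from RefSeq (GRCm38.p6), run 5′ to 3′ on the strand of the gene, and span 200 bases before to 30 bases from the annotated start. Capitals mark matches on either strand, and overlapping matches run together. The letters searched were TTTGAA and its variant TTCGAA for CHR and CCAAT for the second motif. For E2F they were TTTCCCGC and 3 variants of it, namely TTTGGCGC and TTTCGCGC and also TTTGCCGC. Top2a encodes the topoisomerase that untangles sister DNA and lies at chr11:99024160-99024389 on the minus strand. Cdk1, the mitotic kinase, lies at chr10:69352883-69353112 on the minus strand, and Ccnb2, one of its cyclins, at chr9:70421525-70421754 on the minus strand. Ube2c, the ubiquitin-conjugating enzyme of the anaphase-promoting complex, lies at chr2:164769729-164769958 on the plus strand. Pclaf, a Pcna-binding factor, lies at chr9:65890123-65890352 on the plus strand. Mcm6, a helicase subunit, lies at chr1:128359676-128359905 on the minus strand.
Top2a: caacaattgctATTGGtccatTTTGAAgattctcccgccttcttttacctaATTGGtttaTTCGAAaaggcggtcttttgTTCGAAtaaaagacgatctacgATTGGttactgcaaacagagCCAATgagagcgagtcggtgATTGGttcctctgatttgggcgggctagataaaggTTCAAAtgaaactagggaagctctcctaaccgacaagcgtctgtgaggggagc
Cdk1: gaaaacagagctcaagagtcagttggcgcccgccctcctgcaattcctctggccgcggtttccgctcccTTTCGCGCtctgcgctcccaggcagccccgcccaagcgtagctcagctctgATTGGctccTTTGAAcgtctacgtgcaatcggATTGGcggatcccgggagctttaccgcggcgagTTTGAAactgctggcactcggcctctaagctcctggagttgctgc
Ccnb2: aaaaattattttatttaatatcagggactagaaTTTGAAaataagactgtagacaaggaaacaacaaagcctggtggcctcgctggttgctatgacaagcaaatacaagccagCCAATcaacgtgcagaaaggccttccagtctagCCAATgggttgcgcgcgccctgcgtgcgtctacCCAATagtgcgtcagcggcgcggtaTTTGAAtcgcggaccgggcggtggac
Ube2c: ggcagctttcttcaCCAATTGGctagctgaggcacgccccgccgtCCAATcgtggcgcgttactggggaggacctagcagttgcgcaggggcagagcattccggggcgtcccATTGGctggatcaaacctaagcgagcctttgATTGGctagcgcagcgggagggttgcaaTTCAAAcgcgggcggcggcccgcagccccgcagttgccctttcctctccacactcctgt
Pclaf: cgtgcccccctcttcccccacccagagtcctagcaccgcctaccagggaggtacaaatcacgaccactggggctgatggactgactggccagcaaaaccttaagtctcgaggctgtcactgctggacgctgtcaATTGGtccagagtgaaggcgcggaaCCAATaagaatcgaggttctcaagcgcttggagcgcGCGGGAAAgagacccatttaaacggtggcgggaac
Mcm6: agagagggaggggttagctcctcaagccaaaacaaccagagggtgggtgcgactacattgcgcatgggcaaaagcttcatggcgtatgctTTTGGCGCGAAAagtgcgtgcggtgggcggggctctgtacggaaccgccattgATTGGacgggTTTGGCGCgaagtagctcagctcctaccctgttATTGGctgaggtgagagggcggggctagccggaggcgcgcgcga

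A promoter entry was found for 33 of the 40 genes, 20 mitotic and 13 of replication. Over the whole 300-base window, CHR was matched in 16 of 20 mitotic genes (80%) and 2 of 13 replication genes (15.4%), against 21.7% of the 27025 gene symbols of the table. CCAAT was matched in 18 mitotic (90%) and 9 replication genes (69.2%), against 41.1% of all symbols. E2F was matched in 1 mitotic gene, Cdk1, and in 6 replication genes (46.2%), against 2.61% of all symbols. The Top2a stretch above holds 4 CHR and 5 CCAAT matches, and the Mcm6 stretch holds 3 E2F and no CHR match. These are counts of letters and not of bound sites.

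A cell was called cycling when it held UMIs of at least 3 different mitotic genes of the 23. This is a cut through a range of values and not a cell type. By this rule 1149 of 13282 kept cells in metastasis were cycling (8.65%, 8.18 to 9.14%), against 144 of 13310 in naive (1.08%, 0.913 to 1.27%). Of the cycling cells of metastasis, 49.6% were melanoma-like, 14.6% myeloid-like, 10.4% endothelial-like, 5.74% mural-like and 5.74% neural. Of those of naive, 45.8% were neural, 28.5% ependymal-like and 9.03% melanoma-like, where the ependymal-like ones held a median of only 3 mitotic genes. After removal of doublets, 52 of which met the rule in metastasis and 4 in naive, cycling cells of metastasis were thus spread over tumour, vessel, immune and neural classes, while in naive neural cells made up the largest group.

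Within classes, 570 of 711 melanoma-like cells were cycling (80.2%, 77.0 to 83.0%). Endothelial-like cells, which line vessels, were cycling in 120 of 221 cases in metastasis (54.3%, 47.5 to 61.0%) and in 0 of 117 in naive, which allows up to 2.56% when 3 cells of the total are taken as the limit of a count of 0 (the Clopper-Pearson bound is 3.10%). Mural-like cells, the pericytes and smooth muscle around vessels, were cycling in 66 of 141 cases in metastasis (46.8%, 38.4 to 55.4%) and in 0 of 102 in naive, which allows up to 2.94% by the same limit (Clopper-Pearson bound 3.55%). Both vessel classes therefore held many cycling cells in metastasis and none that met the rule in naive. Neural cells, meaning 2 subclusters nearest to the neuroblast list, were cycling at 57.4% in metastasis (66 of 115, 47.8 to 66.6%) and 51.2% in naive (66 of 129, 42.2 to 60.1%). The intervals of neural, endothelial-like and mural-like cells in metastasis overlapped, and that of melanoma-like cells lay above all of them.

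The neural subclusters were a group with Sox11 and Hes6 among its leading genes, left unnamed, and a neuroblast-like group led by Sox11, Igfbpl1, Stmn2 and Dcx. In the first, 43 of 72 cells were cycling in metastasis and 44 of 81 in naive. In the second the counts were 23 of 43 and 22 of 48. In neither subcluster did the share of cycling cells differ beyond its counting interval. The summed mitotic levels, given below, did differ in the neuroblast-like subcluster.

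Myeloid-like cells were cycling at 7.76% in metastasis (168 of 2165, 6.67 to 8.97%) and 0.691% in naive (5 of 724, 0.225 to 1.60%). Different clusters made up this class in each library. A cluster led by Ms4a7, Lyz2 and Spp1, genes of macrophages and activated microglia, held 1297 cells in metastasis and 18 in naive, and 143 of the 1297 were cycling (11.03%, 9.37 to 12.9%). The microglia-like cluster, led by P2ry12, Gpr34 and Siglech, had 4 cycling cells of 506 in metastasis (0.791%) and 2 of 639 in naive (0.313%). Myeloid subclusters high in H2-Eb1 and Cd74, genes of antigen presentation, had 21 of 362 (5.80%) and 3 of 67 (4.48%). Within the latter 2 groups the intervals of both libraries overlapped, and 143 of the 168 cycling myeloid-like cells of metastasis belonged to the Ms4a7 cluster.

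Glia seldom met the rule. Astrocyte-like cells were cycling in 4 of 426 cases in metastasis (0.939%) and 1 of 1232 in naive (0.0812%). Oligodendrocyte-like cells were cycling in 28 of 5340 (0.524%) and 6 of 5540 (0.108%). Olfactory ensheathing-like cells had 8 of 952 (0.840%) and 2 of 1160 (0.172%). Ependymal-like cells had 64 of 2375 (2.69%) and 41 of 3277 (1.25%), with a median of 3 mitotic genes in the cells that met the rule in either library. In oligodendrocyte-like cells that met it the medians were 3 in metastasis and 4 in naive. In neural cells that met the rule the medians were 13.5 and 13 mitotic genes, so ependymal-like and oligodendrocyte-like cells past the cut mostly lay close to it and neural ones well beyond it. The few other glial cells were mixed, with medians of 6 and 11.5 in the 8 and 2 olfactory ensheathing-like cells, 3 in the 4 astrocyte-like cells of metastasis and 19 in the 1 of naive.

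Depth moves these shares, because a deep cell shows more genes. Median UMIs per cell were 29336 in melanoma-like cells of metastasis, 5482 and 2591 in endothelial-like cells of metastasis and naive, 3447 and 1558 in mural-like cells, and 3397 and 3059 in neural cells. When every cell was thinned to 1000 UMIs, with no cell left out, cycling shares in metastasis were 46.1% in neural, 42.9% in melanoma-like, 34.4% in endothelial-like, 24.1% in mural-like and 2.91% in myeloid-like cells. The thinned shares in naive were 41.1% in neural cells and 0% in both vessel classes. At equal depth melanoma-like cells no longer stood above neural cells, and the contrast of the vessel classes between libraries remained. Thinned shares of oligodendrocyte-like cells were 0.0375% and 0.0361%.

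In melanoma-like, endothelial-like, mural-like and Ms4a7 cells of metastasis, the deeper cells met the rule more often. Over the shallowest, middle and deepest groups of equal size, endothelial-like cells of metastasis were cycling at 29.7%, 37.0% and 95.9%, or 25.7%, 23.3% and 54.1% after thinning. Cells next to the cut were a small part of all cells of each class. Exactly 2 mitotic genes were seen in 8 (3.62%) and exactly 3 in 7 (3.17%) of the 221 endothelial-like cells of metastasis, and in 9 (6.38%) and 4 (2.84%) of the 141 mural-like cells. In melanoma-like cells the counts were 53 (7.45%) and 29 (4.08%) of 711, and in myeloid-like cells 135 (6.24%) and 37 (1.71%) of 2165. Beside the 168 cycling myeloid-like cells these counts were not small. With at least 2 mitotic genes the myeloid-like share was 14.0% rather than 7.76%. Cycling endothelial-like cells of metastasis held a median of 16 of the 23 mitotic genes, mural-like 11, melanoma-like 19 and myeloid-like 8. Of these 4 classes the myeloid-like cells had the lowest median.

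**Figure D1:**
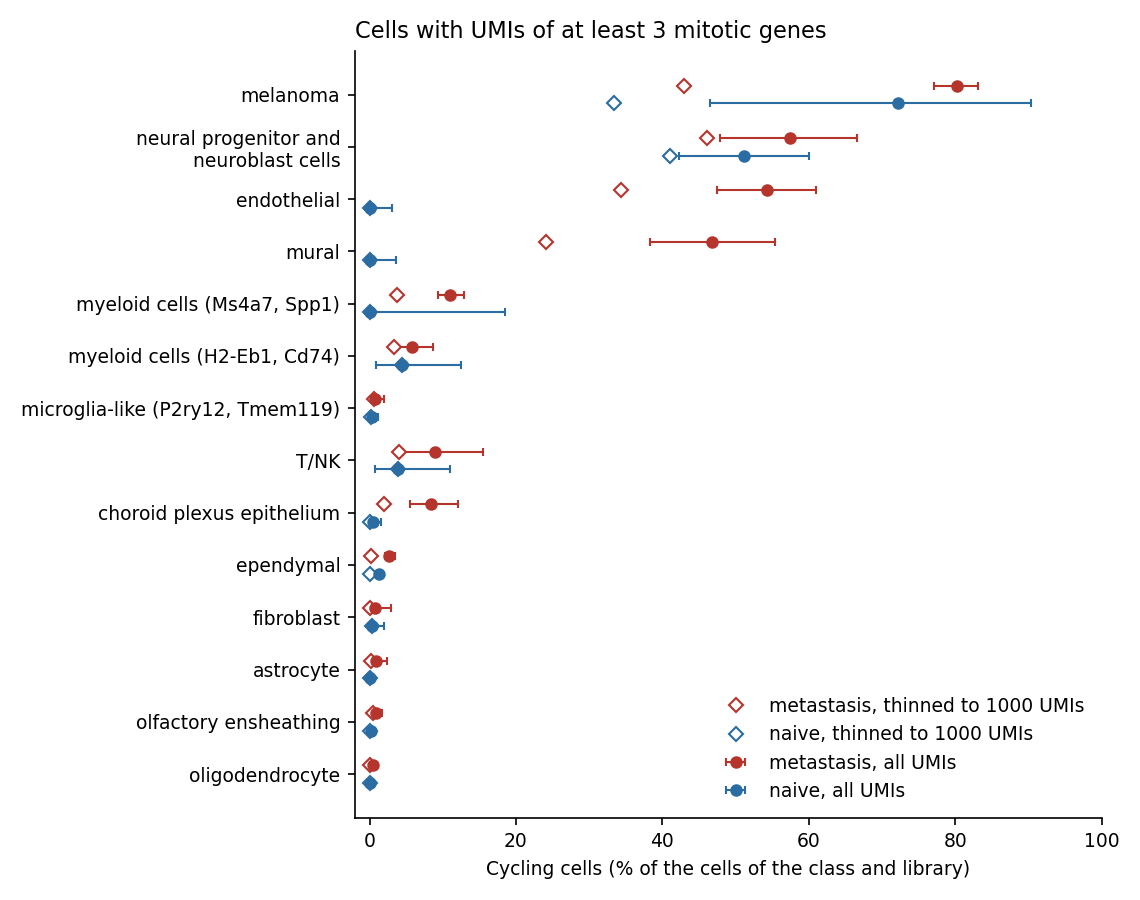
Cycling cells as a percentage of each class (x axis) for 14 classes or clusters (y axis), with filled circles and 95% Clopper-Pearson bars for all UMIs and open diamonds for cells thinned to 1000 UMIs, in red for metastasis and blue for naive. Endothelial-like and mural-like cells stand at 54.3% and 46.8% in metastasis and at 0% in naive, while neural cells stand at 57.4% and 51.2%.

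**Figure D2:**
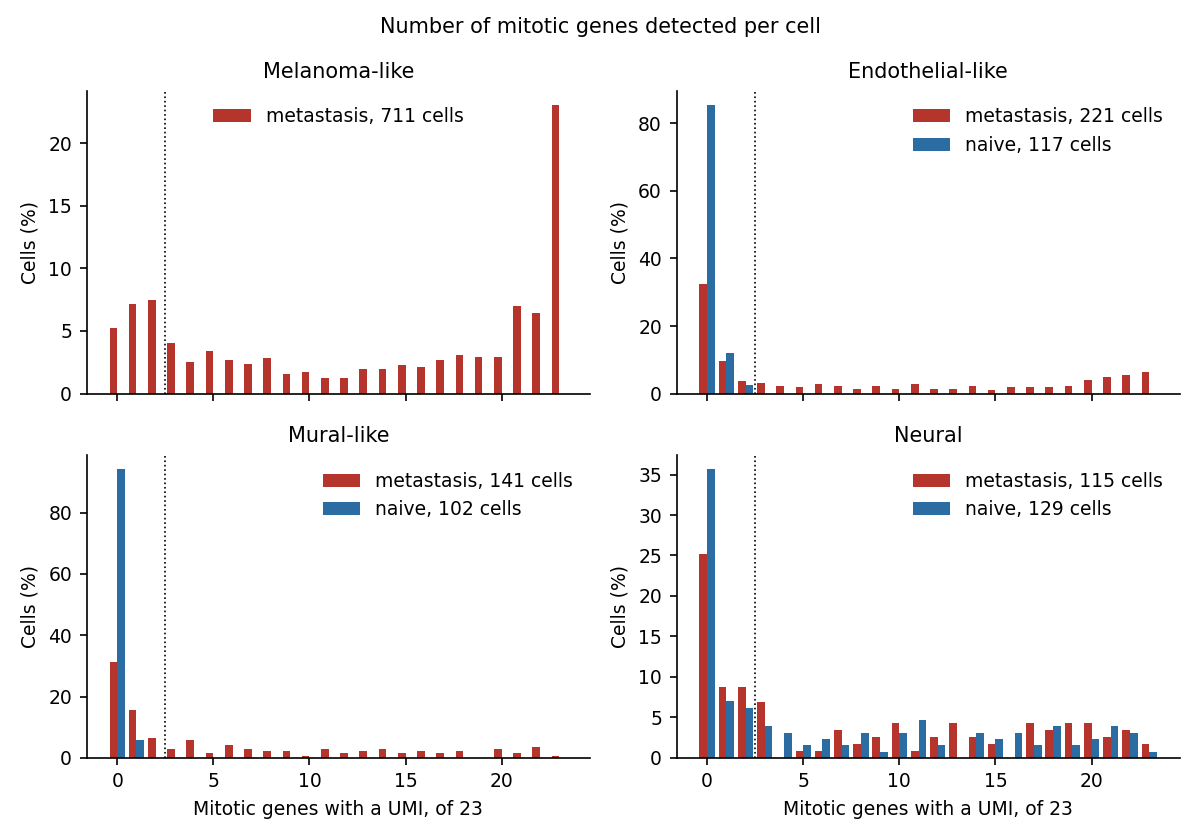
Number of mitotic genes with a UMI per cell (x axis, 0 to 23) against the percentage of cells (y axis) in 4 classes, red for metastasis and blue for naive, with the dotted line between 2 and 3 marking the cut. Endothelial-like and mural-like cells of naive stay left of the line, and neural cells spread across it in both libraries.

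The replication genes give a second reading that the cycling rule did not use. In melanoma-like cells 617 of 711 held at least 3 of the 16 replication genes, and 554 of 711 (77.9%) met both rules. In endothelial-like cells of metastasis 50.2% met both rules, 4.07% the mitotic rule only and 6.33% the replication rule only. In neural cells of metastasis 23 of 115 met the replication rule only, and in naive 21 of 129 (16.3%). In naive endothelial-like cells 4 of 117 met the replication rule alone. In mural-like cells of metastasis 54 met both rules, 12 the mitotic and 8 the replication rule only. Most tumour, vessel and neural cells of metastasis that met either rule thus met both. Elsewhere this did not hold: 130 myeloid-like cells of metastasis met both and 168 the replication rule only, and the counts were 5 and 118 in oligodendrocyte-like and 20 and 81 in ependymal-like cells of that library. Neural cells had the highest replication-only share of the classes named here.

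Levels are given as CPM, the UMIs of a gene scaled to a common total per class. The counts are tags from the 3′ end and carry no correction for gene length, so levels are set against each other across classes for the same gene or the same sum. The 23 mitotic genes together held 3951 CPM in melanoma-like cells of metastasis (3925 to 3978), 3623 in endothelial-like (3554 to 3694), 3332 in mural-like (3207 to 3460), and 7382 in neural cells (7127 to 7644). In naive the same sum was 51.2 in endothelial-like cells (31.3 to 79.0), 25.7 in mural-like cells (9.42 to 55.9) and 6187 in neural cells (5961 to 6419). Neural cells had the highest mitotic sum in either library, and tumour and vessel classes of metastasis were close to each other. The 18 melanoma-like cells of naive had 4003 CPM, whose interval (3835 to 4177) includes the metastasis value.

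Melanoma-like cells held 84002 of the 111089 mitotic UMIs of all kept cells of metastasis. Their highest CPM among the 40 genes in metastasis were those of Top2a (482), Stmn1 (428), Birc5 (426), Ube2c (410), Pclaf (380) and Cdk1 (350). Birc5 encodes survivin, part of the complex that guides chromosome segregation. Pcna stood at 276 CPM and Mki67, the gene of the proliferation antigen Ki-67, at 171 CPM. At the other end Ccne2 (12.3 CPM), a cyclin of the entry into DNA synthesis, and Cdc6 (17.8 CPM), which loads the helicase, were the lowest. At least 1 UMI of Top2a was found in 73.6% of melanoma-like cells, or 27.8% after thinning to 1000 UMIs.

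A share of cells with a UMI needs a background, since free RNA enters every droplet. Top2a had a UMI in 3.09% of oligodendrocyte-like cells of metastasis (median 2748.5 UMIs), a class not known to divide, and in 50.7% of endothelial-like and 36.2% of mural-like cells. After thinning these values were 1.10%, 23.5% and 17.02%. In naive, Top2a had a UMI in 0.271% of oligodendrocyte-like cells and 0.855% of endothelial-like cells. The vessel classes of metastasis were thus far above the class used as background, whereas those of naive were near it.

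In endothelial-like cells, 39 of the 40 genes stood 2-fold or more above naive in metastasis, where 17.3% of the 10202 genes tested did. All 40 passed the minimum of 20 UMIs over both libraries. The median log2 ratio was 4.998 over the 23 mitotic genes, 2.90 over the 16 replication genes and -0.02 over all genes tested, with genes at 0 in naive set to a floor of 3 UMIs. Ube2c had 486 CPM against 2.56 in naive (1 UMI), a log2 ratio of 7.57 (5.09 to 12.87). Top2a was at 400 and 2.56 CPM (log2 7.29, 4.81 to 12.59), Cdk1 at 315 and 2.56 (6.94, 4.46 to 12.25), and Mki67 at 246 and 2.56 (6.59, 4.10 to 11.89). Each of these 4 genes rested on a single UMI in naive, which sets the width of the intervals.

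Where naive held no UMI only a bound can be given. Pclaf was at 592 CPM in endothelial-like cells of metastasis and at least 77.2-fold higher than in naive, Birc5 at 305 CPM and at least 39.7-fold higher, and Ccnb2 at 106 CPM and at least 13.8-fold higher. Prc1, which bundles the microtubules between the separating chromosomes, was at 197 and 2.56 CPM (log2 6.27, 3.78 to 11.57). The smallest differences were those of Mcm6 (116 and 64.0 CPM, log2 0.86, 0.28 to 1.51), Stmn1 (834 and 389 CPM, 1.10, 0.86 to 1.35), Mcm4 (62.6 and 17.9 CPM, 1.81, 0.73 to 3.14) and Rrm1 (105 and 23.03 CPM, 2.19, 1.25 to 3.33). Pcna stood at 226 and 28.1 CPM (3.01, 2.16 to 4.02). Of these 4 genes 3 belong to DNA replication and had 7 to 25 UMIs in naive. The 10 melanoma markers summed to 518 CPM in endothelial-like cells of metastasis and 514 in naive. Of the 8 past the minimum, none was 2-fold or more higher and 1 was lower, where 1761 and 1750 of the 10202 genes tested were. Their median log2 ratio was 0.45, so the equal sums do not show how single markers differed. In naive oligodendrocyte-like cells the sum was 106 CPM, and the part of tumour RNA in endothelial-like cells was not tested.

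In mural-like cells, 39 of the 40 genes stood 2-fold or more above naive, against 22.6% of the 7176 genes tested, and Stmn1 was the exception. The median log2 ratio was 3.94 over mitotic and 3.14 over replication genes, and 0.13 over all genes tested. Of the 40 genes 23 had no UMI in naive, so both medians rest on floors in part. Pclaf was at 565 and 8.56 CPM (log2 6.04, 4.18 to 9.09), Cdk1 at 258 and 4.28 CPM (5.91, 3.42 to 11.23) and Cenpf, a kinetochore gene, at 168 and 4.28 CPM (5.29, 2.79 to 10.61). Top2a was at 398 CPM in metastasis and at least 31.0-fold higher than in naive, Ube2c at 303 CPM and at least 23.6-fold, Prc1 at 289 CPM and at least 22.53-fold, and Mki67 at 197 CPM and at least 15.4-fold. Stmn1 was at 664 and 753 CPM (-0.18, -0.43 to 0.07), Pcna at 230 and 34.2 CPM (2.75, 1.74 to 3.98) and Mcm4 at 90.6 and 17.1 CPM (2.40, 0.99 to 4.32). The cells of naive were shallower here (a median of 1558 UMIs), so a gene without a UMI there is a count of 0 in 102 cells of low depth. Whether such a gene was absent or missed was not tested. Melanoma markers summed to 343 CPM in metastasis and 77.0 in naive in this class. The mitotic sum in mural-like cells of metastasis was 972 UMIs for every 100 of these markers, against 14.0 in melanoma-like cells.

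In myeloid-like cells, 34 of the 40 genes stood 2-fold or more above naive, against 7.80% of the 13110 genes tested. The median log2 ratio was 2.10 over mitotic and 1.21 over replication genes, and -0.34 over all genes tested. Birc5 was at 49.5 and 5.65 CPM (log2 3.13, 2.14 to 4.35), Prc1 at 26.3 and 2.83 CPM (3.22, 1.84 to 5.10) and Plk1, a mitotic kinase, at 7.73 and 0.706 CPM (3.45, 0.93 to 8.77). Top2a was at 79.3 and 21.9 CPM (1.86, 1.34 to 2.42), Mki67 at 42.6 and 7.77 CPM (2.46, 1.60 to 3.47) and Pcna at 124 and 72.1 CPM (0.78, 0.49 to 1.09). The smallest ratios were those of Kif23, a kinesin of the cleavage site (0.52, -0.38 to 1.56), Mcm4 (0.66, -0.08 to 1.497) and Mcm7 (0.67, 0.06 to 1.35). The mitotic sum was 541 CPM in metastasis and 134 in naive, below the vessel classes of metastasis, and the clusters behind it differ between libraries as described above. With 10 CPM added to both values, 12 rather than 34 genes were 2-fold higher. The share over all genes with this addition is not given, so the drop cannot be read as particular to the 40 genes. Melanoma markers summed to 401 and 94.0 CPM.

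Compared cluster by cluster, the picture in myeloid cells was smaller. In the microglia-like cluster 12 of the 40 genes passed the minimum, 5 were 2-fold or more above naive and none below, among them Birc5 (26.6 and 1.69 CPM), Rrm2 (18.8 and 2.54 CPM) and Top2a (37.7 and 6.78 CPM), where 3.36% of genes tested were above and 2.02% below. In this cluster the melanoma markers summed to 840 CPM in metastasis and 102 in naive, and their part in the result was not tested. In the subclusters high in H2-Eb1, 27 passed, 2 were higher (11.0% of genes tested) and 4 lower (6.72%), with Pclaf at 55.6 and 139 CPM. No comparison was made in the Ms4a7 cluster, which had 18 cells in naive.

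In neural cells none of the 40 genes was at least 2-fold higher or lower in metastasis, where 2.03% of the 6893 genes tested were higher and 2.38% lower. The median log2 ratio was 0.24 over mitotic genes, 0.12 over replication genes and 0.02 over all genes tested. Top2a was at 1149 and 1069 CPM (0.11, -0.08 to 0.29), Mki67 at 438 and 385 CPM (0.19, -0.12 to 0.49), Pcna at 455 and 470 CPM (-0.05, -0.34 to 0.24) and Stmn1 at 4098 and 4049 CPM (0.02, -0.08 to 0.11). The largest ratios were those of Mcm2 (0.87, 0.28 to 1.48), Cenpa, the centromeric histone (0.77, 0.43 to 1.12), Plk1 (0.75, 0.03 to 1.48) and Hmmr, a spindle protein (0.63, 0.23 to 1.05). The smallest were those of Gins2, a partner of the helicase (-0.69, -1.46 to 0.05), Bub1, a checkpoint kinase (-0.63, -1.35 to 0.06), and Cdc6 (32.6 and 39.3 CPM, on 14 and 18 UMIs). Pclaf came next (-0.22, -0.42 to -0.02). Some intervals exclude 0. The mitotic sum was 7382 CPM in metastasis (7127 to 7644) and 6187 CPM in naive (5961 to 6419), and these intervals do not overlap. The count depends on which cells are taken as neural: with doublets kept or at clustering resolution 0.5, 6 of the 25 genes that passed the minimum were 2-fold or more above naive, and 4 of 37 with cells named by their own markers. Shares over all genes tested are not given for these other choices of cells, so their counts are not set against genes at large. The neuroblast-like subcluster alone had a mitotic sum of 10064 CPM in 43 cells of metastasis (9550 to 10597) and 6084 CPM in 48 cells of naive (5685 to 6505). By contrast, the unnamed subcluster had 6043 CPM (5761 to 6335) and 6233 CPM (5960 to 6514). In the unnamed subcluster, too, none of the 40 genes was 2-fold apart (2.72% of genes tested were above and 2.93% below). Melanoma markers summed to 531 and 212 CPM in neural cells.

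**Figure D3:**
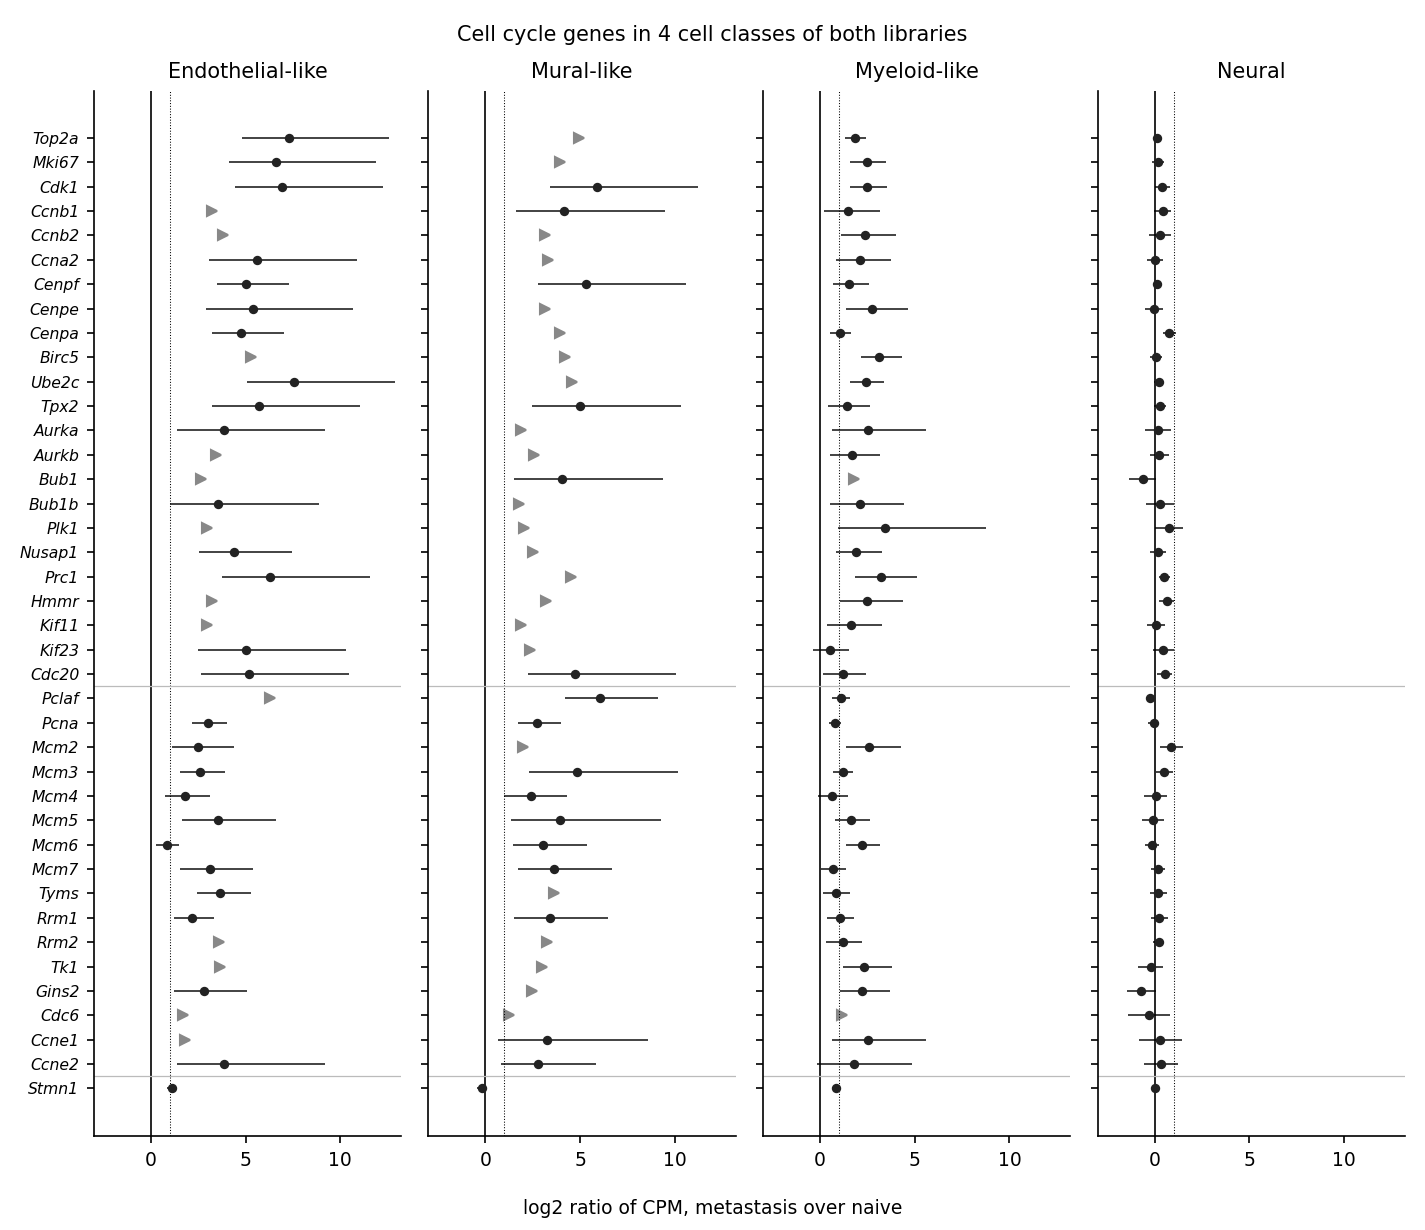
Log2 ratio of CPM, metastasis over naive (x axis), for each of the 40 genes (y axis, mitotic above, replication below and Stmn1 last) in 4 classes, with dots and 95% intervals, and grey triangles for lower bounds where naive held no UMI; the solid line marks equal levels and the dotted line 2-fold. Nearly all genes lie right of the dotted line in endothelial-like and mural-like cells (39 of 40 in each) and none does in neural cells.

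Melanoma-like and vessel cells of metastasis had much the same profile over these genes. Against endothelial-like cells, 3 of the 40 genes were 2-fold or more above in melanoma-like cells and 1 was below, where 18.6% and 20.3% of the 14273 genes tested were. The 3 were Rrm2 (275 and 93.6 CPM, log2 1.55, 1.38 to 1.74), Mcm2 (133 and 58.1 CPM, 1.20, 0.97 to 1.43) and Ccnb1, a cyclin B (160 and 71.0 CPM, 1.17, 0.97 to 1.38). Ccne2 was the lower one (12.3 and 37.6 CPM, -1.61, -1.94 to -1.28). Against mural-like cells the same 3 were higher, and Ccne2 (-2.25, -2.70 to -1.77) and Gins2 (-1.13, -1.53 to -0.71) were lower, where 14.0% and 19.0% of genes tested were. Fewer of the 40 genes than of all genes thus differed between tumour and vessel classes.

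Against neural cells, none of the 40 genes was at least 2-fold higher in melanoma-like cells and 17 were lower, where 13.4% and 26.4% of genes tested were. The largest differences were those of Stmn1 (428 and 4098 CPM, log2 -3.26, -3.33 to -3.18), Ccne2 (-2.25), Mcm7 (-1.82) and Kif11, a spindle motor (-1.73). Against the Ms4a7 cluster 38 were at least 2-fold higher in melanoma-like cells (32.6% of genes tested), led by Rrm2 (log2 3.93, 3.69 to 4.18) and Ccnb1 (log2 3.88, 3.57 to 4.20). The 2 others were Gins2 and Stmn1. Relative to oligodendrocyte-like cells of the same library, 39 of the 40 genes were at least 2-fold higher in each of the melanoma-like, endothelial-like, mural-like and neural classes, where 29.1%, 25.9%, 24.6% and 30.3% of genes tested were.

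**Figure D4:**
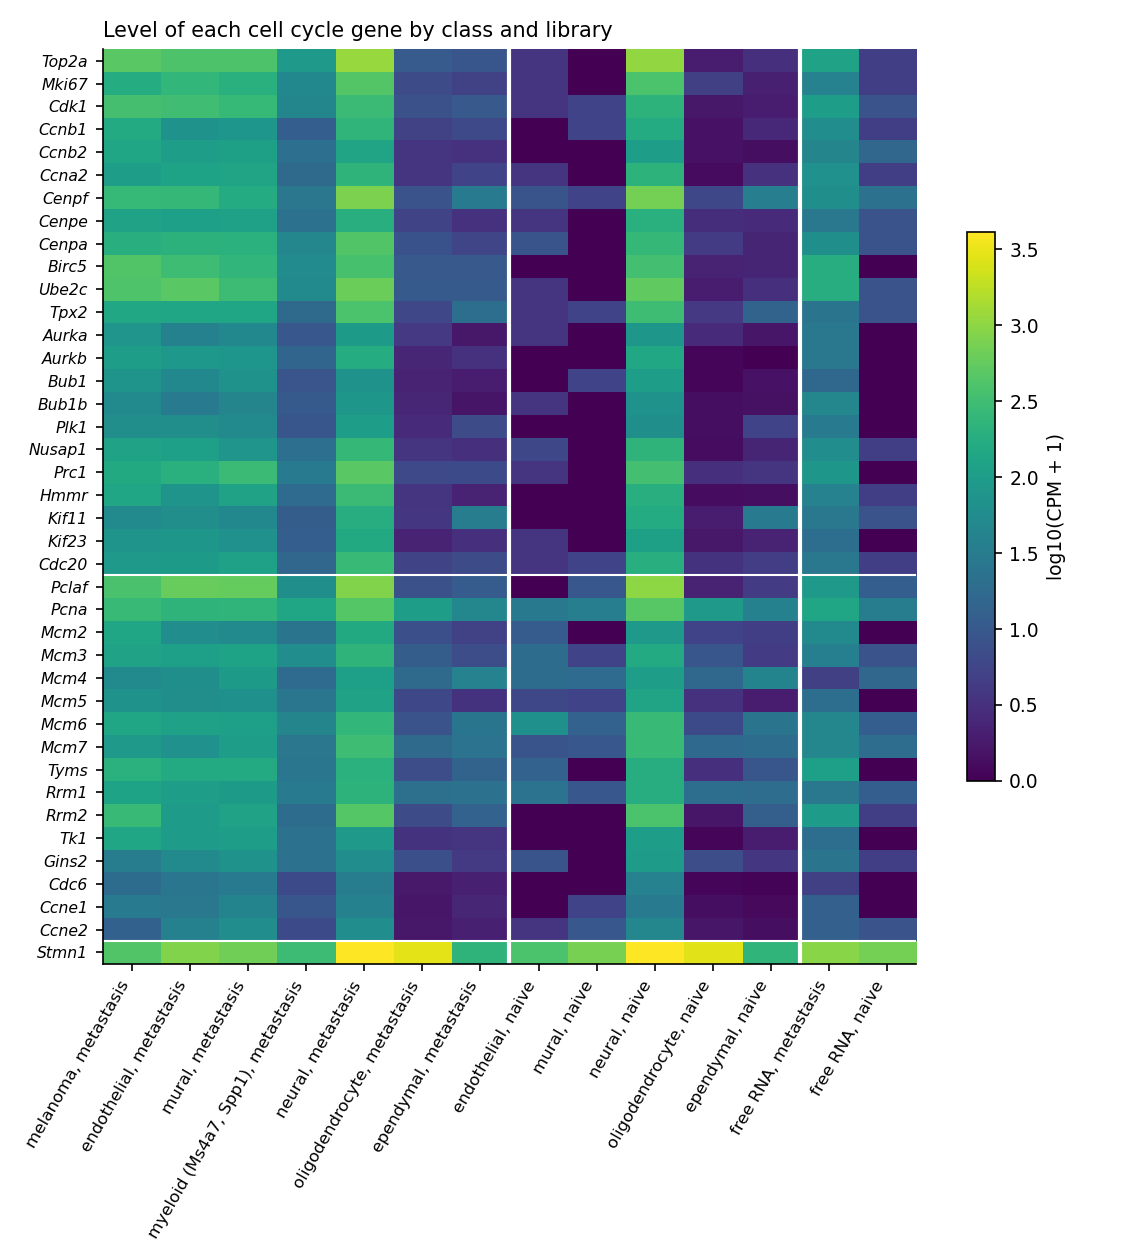
Level of each of the 40 genes (rows) in 12 class and library combinations and in free RNA of both libraries (columns), coloured by log10(CPM + 1). Melanoma-like, endothelial-like, mural-like and neural columns of metastasis and the neural column of naive are bright throughout, Stmn1 is also bright in oligodendrocyte-like cells (2907 and 2833 CPM), and the endothelial-like and mural-like columns of naive are dark for most mitotic genes.

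The free RNA of metastasis, read from barcodes of 10 to 100 UMIs, itself carried 1359 CPM of mitotic genes, against 107 CPM in naive. It also carried 7035 CPM of the 10 melanoma markers, against 545 CPM in naive. For every 100 melanoma-marker UMIs there were 19.3 mitotic UMIs in this free RNA of metastasis and 14.0 in melanoma-like cells. Barcodes of 100 to 300 UMIs, a larger band (10887889 against 256869 UMIs in metastasis), carried 914 CPM of mitotic genes in metastasis and 114 in naive. In that band the ratio was 15.4 in metastasis. The ratio was 19.7 in oligodendrocyte-like, 21.5 in fibroblast-like, 24.8 in astrocyte-like and 24.8 in microglia-like cells, near that of free RNA. Olfactory ensheathing-like, choroid plexus epithelium-like and ependymal-like cells had higher ratios than these classes, though well below the values that follow. The ratio was 700 in endothelial-like, 972 in mural-like, 1389 in neural and 174 in Ms4a7 cells, far from that of free RNA. Removing a free-RNA part scaled on the choroid plexus gene Ttr left 99.1% of the mitotic sum in endothelial-like, 98.0% in mural-like, 98.8% in neural and 85.9% in myeloid-like cells. It left 40.2% in ependymal-like cells and 0.0521% in oligodendrocyte-like cells of metastasis. The part removed was taken from barcodes of 10 to 100 UMIs, whose mitotic sum in metastasis was the higher of both bands.

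**Figure D5:**
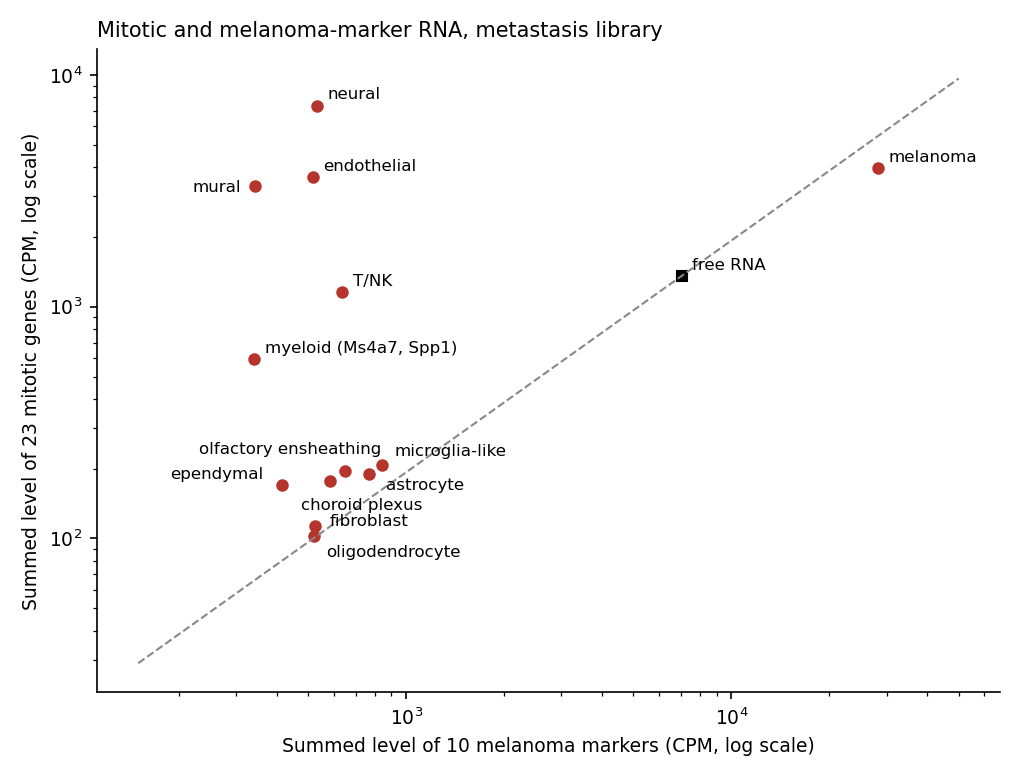
Summed CPM of the 10 melanoma markers (x axis, log scale) against summed CPM of the 23 mitotic genes (y axis, log scale) for classes of the metastasis library (red circles) and free RNA (black square), with a dashed line at the free-RNA ratio of 19.3 mitotic per 100 melanoma-marker UMIs (barcodes of 10 to 100 UMIs). Oligodendrocyte-like and fibroblast-like cells lie near the line, and mural-like, endothelial-like and neural cells lie far above it.

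Among glia, levels in metastasis exceeded those in naive for part of the list. In oligodendrocyte-like cells 38 of the 40 genes passed the minimum, 22 were 2-fold or more above naive (4.98% of the 15192 genes tested) and none below (1.19%). Among the 22 were Top2a at 10.1 and 0.868 CPM and Tk1 at 2.37 and 0.163 CPM. Stmn1 (2907 and 2833 CPM) and Pcna (102 and 89.6 CPM) differed little and are RNAs these cells held in both libraries. In this class the melanoma markers summed to 520 CPM in metastasis and 106 CPM in naive. After removal of the free-RNA part the median log2 ratio of the list was -0.23, from 1.29 before it.

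Of the 32 genes past the minimum in ependymal-like cells, 12 were 2-fold or more above naive (3.63% of genes tested) and none below (1.25%). Cdk1 was at 9.06 and 0.897 CPM and Birc5 at 9.30 and 1.35 CPM. Other genes stood at similar levels in both libraries, among them Cenpf (31.4 and 34.1 CPM), Kif11 (33.5 and 29.6 CPM), Mcm4 (39.2 and 41.1 CPM), Mcm6 (24.1 and 23.7 CPM) and Stmn1 (220 and 227 CPM). In naive, Cenpf, Kif11 and Tpx2 held 456, 396 and 178 of the 1428 mitotic UMIs of this class, against 28 for Top2a and 14 for Mki67. The mitotic sum of naive ependymal-like cells thus rests mostly on these 3 genes. Melanoma markers summed to 416 and 63.7 CPM in this class, and removal of the free-RNA part brought the median log2 ratio from 0.65 to -0.32. In astrocyte-like cells 7 of 16 genes were 2-fold or more above (2.27% of genes tested), with none below (3.05%) and melanoma markers at 768 and 88.9 CPM. The largest ratios were those of Cdk1 (22.3 and 2.39 CPM, 3.22, 1.81 to 4.85) and Ube2c (log2 2.55, 1.29 to 3.91). In olfactory ensheathing-like cells 12 of 21 were above (2.60%) and none below (1.31%), with melanoma markers at 649 and 107 CPM. The counts in oligodendrocyte-like and ependymal-like cells changed with the calculation. With 10 CPM added to both values 0 genes were 2-fold higher in either class, and 1 in each with free RNA subtracted. The shares over all genes with these changes are not given, so the drops cannot be read as particular to the cell cycle genes. In these glial classes markers of the tumour were higher in metastasis alongside the cell cycle genes, and apart from the subtraction given their part in the result was not tested.

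In choroid plexus epithelium-like cells 25 of 300 cells of metastasis (8.33%) and 3 of 559 of naive (0.537%) met the cycling rule, or 2% and 0% after thinning. Of the 27 genes past the minimum there 23 were 2-fold or more above naive (6.07% of genes tested) and none below (0.810%), with the largest ratios those of Pclaf (41.8 and 0.530 CPM, 6.30, 4.91 to 8.19) and Ube2c (19.4 and 0.265 CPM, 6.20, 4.29 to 9.27). Cycling choroid cells of metastasis held 2580 CPM of melanoma, 781 of endothelial and 2140 of mural markers, against 351, 111 and 151 in the remaining choroid cells, and the part of these markers in the result was not tested.

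Among the remaining subclusters of the neural cluster, which hold astrocyte-like, oligodendrocyte precursor-like and unnamed cells, 15 of 172 cells were cycling in metastasis (8.72%) and 3 of 236 in naive (1.27%). Of the 28 genes past the minimum 19 were 2-fold or more above naive (6.07% of genes tested) and none below (4.05%), with melanoma markers at 498 and 142 CPM. T/NK-like cells, the lymphocytes, were cycling in 11 of 123 cases (8.94%) and 3 of 77 (3.90%), with overlapping intervals. There 17 genes passed, 1 was above (9.78% of genes tested) and 3 below (3.45%). In fibroblast-like cells 10 genes passed, none was above (5.18%) and 1 below (2.50%).

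Other cell cycle genes, a list of 132 that excludes the 40, were counted in the same way. In endothelial-like cells 107 of 129 past the minimum were 2-fold or more above naive and 2 below, against 17.3% and 17.2% of all genes tested. In mural-like cells 99 of 110 were higher and 1 lower (22.6% of all genes tested were higher, and 1148 of the 7176 lower), and in myeloid-like cells 63 of 127 were higher and 1 lower (7.80% were higher, and 2619 of the 13110 lower). In neural cells 2 of 125 were higher and 1 lower (2.03% and 2.38%). The medians of this list were 2.22, 2.20 and 0.97 in endothelial-like, mural-like and myeloid-like cells, below the 3.62, 3.24 and 1.78 of the 40 genes. The linker histone gene Hist1h1b, made with DNA synthesis, was at 197 CPM and at least 25.7-fold higher than naive in endothelial-like cells, and at 237 CPM and at least 18.5-fold higher in mural-like cells. Pttg1, which encodes securin, went the other way at 62.3 and 141 CPM (-1.18, -1.62 to -0.71) in endothelial-like cells and 58.3 and 163 CPM (-1.48, -2.13 to -0.82) in mural-like cells.

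Of 35 regulators of the cycle, 16 were 2-fold or more above naive and 6 below in endothelial-like cells, where 17.3% and 17.2% of all genes tested were, so the number below was near that of genes at large. Ccnd1, the cyclin that couples growth signals to the cycle, was at 1002 and 159 CPM (2.66, 2.30 to 3.05), Cdk4, its kinase, at 255 and 84.4 CPM (1.60, 1.09 to 2.15), and E2f1, a factor that drives replication genes, at 29.6 and 2.56 CPM (3.53, 1.01 to 8.85). Lower were Cdkn1c (25.1 and 233 CPM, -3.22, -3.68 to -2.75) and Cdkn1a (131 and 338 CPM, -1.37, -1.66 to -1.07), which encode inhibitors of cyclin-dependent kinases, and Rb1 (31.0 and 71.6 CPM, -1.21, -1.84 to -0.54), the retinoblastoma gene. In mural-like cells Ccnd1 was at 508 and 34.2 CPM (3.89, 2.90 to 5.11), and Cdkn1c (26.1 and 146 CPM, -2.48, -3.34 to -1.65), Rb1 (19.9 and 55.6 CPM, -1.49, -2.63 to -0.31) and Cdkn1b, another such inhibitor gene (57.1 and 150 CPM, -1.39, -2.06 to -0.71), were lower. In neural cells none of 29 regulators was at least 2-fold different, and Ccnd2, the D-type cyclin of progenitors, was at 4531 and 4312 CPM.

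Within a class and library, cycling cells can be set against the remaining cells on genes the rule did not use, and the replication genes serve for this. Of the 16, those at least 2-fold higher in cycling cells were 16 in melanoma-like (8.57% of genes tested, with 6.94% below), 14 in endothelial-like (12.2%, 16.2% below), 14 in mural-like (10.1%, 8.81% below) and 16 in myeloid-like cells of metastasis (4.67%, 9.03% below), with no member below. The median log2 ratios were 3.41, 2.32, 2.24 and 2.45. In neural cells 5 of 14 were in metastasis (median 0.54, 9.24% of genes tested) and 8 of 14 in naive (median 1.03, 10.2%). Cycling cells were also the deeper ones, at a median of 15246 against 2857 UMIs in endothelial-like, 8724 against 1450 in mural-like and 31980.5 against 17552 in melanoma-like cells, and the part of depth in which cells are called was not tested here. In neural cells the remaining cells also held replication genes (2221 CPM over the 16 genes in metastasis).

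Genes of kinase inhibitors differed in direction. In melanoma-like cells Cdkn1a was at 117 CPM in cycling and 287 in the remaining cells (log2 -1.30), and Ccnd2, a cyclin gene, at 422 and 944 CPM (-1.16). In endothelial-like cells of metastasis Cdkn1c was at 11.51 and 122 CPM (-3.40), and in mural-like cells at 6.77 and 79.0 CPM (-3.54). Other inhibitor genes were higher in cycling cells. Cdkn2d stood at 117 and 45.4 CPM in melanoma-like (1.36), 107 and 51.0 in endothelial-like (1.07), 164 and 65.1 in mural-like (1.34) and 77.6 and 29.8 in myeloid-like cells (1.38). Cdkn2c was at 58.3 and 9.25 CPM in myeloid-like cells (2.66) and, in mural-like cells, at 57.6 CPM against 1 UMI in the remaining cells. In neural cells of naive Cdkn1a was at 83.3 and 25.4 CPM (1.71, on 25 and 4 UMIs). Foxm1, a factor of mitotic transcription, was at 35.5 and 3.27 CPM in melanoma-like cells (3.44) and at 22.2 and 0 CPM in endothelial-like cells of metastasis. Melanoma markers stood at 537 CPM in cycling and 377 in the remaining endothelial-like cells, and at 308 and 437 CPM in mural-like cells. Endothelial markers were at 7596 and 12906 CPM in cycling and remaining endothelial-like cells. The 10 microglia markers summed to 5417 CPM in cycling and 3257 CPM in remaining endothelial-like cells, and to 3870 and 3435 CPM in mural-like cells. Nearly all of this was Sparc, which vessel cells are also known to make (5336 and 2968 CPM in endothelial-like, 3779 and 3324 CPM in mural-like cells). The 9 other microglia markers summed to 80.9 and 289 CPM in endothelial-like and 91.5 and 112 CPM in mural-like cells, against 3405 and 5270 CPM in myeloid-like cells. Macrophage and monocyte markers summed to 733 and 1096 CPM in endothelial-like and 789 and 939 CPM in mural-like cells, against 18581 and 21672 CPM in myeloid-like cells. Over all cells of metastasis outside the myeloid-like class they stood at 300 CPM. Sparc was singled out after its values were seen.

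Spans of 10 of the 40 genes overlap another protein-coding gene on GRCm38 (GENCODE M21), all on the opposite strand. Prc1 lies wholly within the span of Rccd1 and Pclaf within that of Trip4. Whether the counting used strand is not given in the sources used here, so the levels of these 10 genes are uncertain to that extent. Counts were not checked against the partner genes.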

How the data were processed

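The deposited values are raw UMI counts for each barcode and gene, which the authors made with STARsolo on GRCm38, as named in the submitters' processing notes; version, annotation and settings are not given in the sources used here. Libraries were 10x 3′ v3, per the labels' protocols. The record titles were exchanged by an update in the series record, and the groups follow the present titles.

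Barcodes were kept with at least 1000 UMIs, 500 genes and at most 20% mitochondrial UMIs, which left 13745 and 13995 in metastasis and naive. Doublets were removed at a scrublet score of 0.25 (scanpy 1.11.5, expected rate 0.06), 463 (3.37%) and 685 (4.89%), because the automatic threshold of 0.710 called 0 in metastasis and that of 0.203 called 855 in naive. Both libraries were clustered jointly, leaving out the cell cycle lists (2000 variable genes, 30 components, 15 neighbours, Leiden resolution 1) and named from marker lists, so classes can differ from the study's own. Unnamed clusters were clustered again at resolution 0.5.

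The members, gene lists and design were chosen with earlier results of these data known. The doublet score, the naming thresholds, the second clustering and the choice of neural subclusters were set after the data had been seen, as the last of 3 naming schemes tried, with cycling counts per cluster in view.

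UMIs were summed per class and library. Libraries were compared gene by gene only in classes of at least 50 cells in each, and a few summed levels are given for smaller groups with their cell numbers. Genes with at least 20 UMIs over both sums were compared, and 2-fold was a rule of size. Ratios have exact conditional binomial, shares exact Clopper-Pearson and levels exact Poisson intervals (95%). Where a class had no UMI of a gene in naive, a floor of 3 UMIs over the class stood in, and such bounds ignore the counting error in metastasis. Free RNA was read from barcodes of 10 to 100 UMIs, and summed levels are also given for barcodes of 100 to 300 UMIs. The named genes were the members with the highest CPM and the largest and smallest ratios, and Mki67, Top2a, Pcna and Stmn1. On simulated counts for endothelial-like cells (10087 genes), 7.41% of unchanged genes came out at least 2-fold different by counting noise alone. Of the genes set to differ, 98.8% were recovered. The sizes set are not given here, so this recovery is no check of the 2-fold rule. Recovery of genes that differ by about 2-fold was not tested. Alternatives varied the limits, doublets, clustering, naming, cycling rule, depth, weighting and free RNA.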

Additional observations from a re-analysis of the deposited data

How the results depend on the processing

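No paired analysis was possible because each group is 1 library and the labels carry no replicate numbers; for the same reason no replicate could be left out. Across the main results and their alternatives, 126 values stayed within counting error or 1.5 times and 30 moved. Cycling shares moved with the rule and with depth. In melanoma-like cells the share was 87.6% with at least 2 mitotic genes, 73.6% with at least 5, 86.8% by at least 3 replication genes, and 42.9% and 56.9% thinned to 1000 and 2000 UMIs. In endothelial-like cells of metastasis it was 72.5% among cells with at least 2000 UMIs and 34.4% thinned to 1000. In mural-like cells it was 70% with at least 2000 UMIs, 38.3% with at least 5 mitotic genes and 24.1% thinned to 1000. In myeloid-like cells it was 10.6% with at least 2000 UMIs, 14.0% with at least 2 mitotic genes, 5.13% with at least 5, 13.8% by replication genes, and 2.91% and 5.42% thinned to 1000 and 2000 UMIs. In neural cells of metastasis and naive it was 39.3% and 38.2% with doublets kept, 41.4% and 38.2% at resolution 0.5, 76.6% and 73.8% with cell cycle genes kept in the clustering, 70.4% and 60.5% by replication genes, and 46.1% and 41.1% thinned to 1000 UMIs.

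The median log2 ratio of the 40 genes in mural-like cells was 2.03 among cells with at least 2000 UMIs. In neural cells 6 genes were 2-fold or more above naive with doublets kept, 6 at resolution 0.5 and 4 with cells named by their own markers, against 0 in the report. With free RNA subtracted the median was -0.23 in oligodendrocyte-like and -0.32 in ependymal-like cells. With 10 CPM added to both values 12 genes stood 2-fold or more above naive in myeloid-like cells. Shares over all genes tested are not given for these alternatives, so the counts of genes are not set against genes at large. Apart from the construction of these alternatives the cause was not tested. Leaving out the 49 shared barcodes, an alternative chosen after seeing the data, gave 54.5% in endothelial-like and 46.8% in mural-like cells of metastasis. The number of cells limits the vessel classes of naive. By the limit of 3 cells a count of 0 allows a cycling share of up to 2.56% of endothelial-like and 2.94% of mural-like cells. The Clopper-Pearson bounds are 3.10% and 3.55%.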

Other observations

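The genes of tumour-type endothelium, a list of 6, were all 2-fold or more higher in endothelial-like cells of metastasis, where 17.3% of all genes tested were, with a median log2 ratio of 3.95. The list was chosen with earlier results of these data known, so this count is no independent support. Members past the minimum were also higher in choroid plexus epithelium-like (4 of 4), oligodendrocyte-like (4 of 5) and ependymal-like cells (3 of 4), but not in astrocyte-like cells (0 of 1). Among all genes tested 750 of 12350, 756 of 15192, 599 of 16509 and 256 of 11264 were higher there. Igfbp3, which encodes a binding protein of insulin-like growth factors, was at 2529 CPM in metastasis and 33.3 in naive. Plvap, a gene of fenestrated vessels, was at 454 CPM in metastasis and at least 59.1-fold higher than in naive. Within endothelial-like cells of metastasis the list summed to 3950 CPM in cycling and 2974 CPM in the remaining cells.

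Cdk2, a kinase of DNA synthesis, was at 347 CPM in melanoma-like and 40.03 CPM in endothelial-like cells of metastasis. Its span (GRCm38 chr10:128697939-128705031, minus strand) overlaps that of the melanosome gene Pmel (chr10:128704195-128720238, plus strand) by 837 bases, so without knowledge of strand in the counting, reads of both genes cannot be told apart. Cdk2 was chosen after its values were seen.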
